A study of Rattus norvegicus with 9 samples.

Results

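Allograft corneas of the rat were compared with isograft corneas for their mature microRNAs (miRNAs), to see what a mismatched donor added to the effect of surgery. By the meaning of the terms, donor and recipient are matched in an isograft and differ in an allograft. The comparison took in every miRNA with at least 5 RPM (reads scaled to a common library size) in at least 3 of the 6 graft libraries, which was 271 of 765 listed. A further 168 were listed at 0 in all 6 grafts and 326 were detected in a graft but were too low to test. The 3 allograft and the 3 isograft libraries, and 3 libraries of untouched normal cornea used here only for reference values, are all labelled as Wistar rats aged 6 weeks. The labels carry no further treatment or allele, and they do not state the donor strain, how long after surgery a graft was taken or whether it was clear. Each library is called by its group and its title number, 12, 34 or 56, whose meaning is not stated either. No label ties the libraries to separate animals, and the p-values therefore describe only how these samples spread, which may be technical.

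A miRNA is a short RNA cut from either arm (5p or 3p) of a hairpin precursor, and it lowers the output of messenger RNAs that pair with its seed, bases 2 to 8 from its 5′ end. Hairpins often lie in clusters that are transcribed together, and miRNAs with the same seed have overlapping targets. The cornea is a clear, avascular tissue whose epithelium is rich in miR-184, miR-205 and the miR-200 family, while miR-142, miR-150, miR-155 and miR-223 are known from white blood cells. Rejection of a corneal graft is led by T cells together with macrophages.

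The mature sequences on which the results turn are shown from the RefSeq table of the assembly GRCr8, with the seed in capitals. The first set holds miRNAs of white blood cells and of immune activation that were higher in allografts. miR-146a-5p and miR-146b-5p carry the same seed.
miR-142-3p: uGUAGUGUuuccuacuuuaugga
miR-142-5p: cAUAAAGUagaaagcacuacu
miR-155-5p: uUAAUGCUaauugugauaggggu
miR-223-3p: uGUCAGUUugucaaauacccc
miR-342-3p: uCUCACACagaaaucgcacccgu
miR-146a-5p: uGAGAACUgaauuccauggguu
miR-146b-5p: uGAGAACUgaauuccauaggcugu

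The second set holds miRNAs that were higher in allografts, each followed by a relative with the same seed.
miR-363-3p: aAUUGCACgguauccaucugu
miR-92a-3p: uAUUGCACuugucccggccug
miR-20b-5p: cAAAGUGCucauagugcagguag
miR-17-5p: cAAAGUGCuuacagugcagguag
miR-362-3p: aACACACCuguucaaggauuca
miR-329-3p: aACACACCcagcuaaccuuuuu
miR-7a-5p: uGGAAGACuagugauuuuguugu
miR-7b: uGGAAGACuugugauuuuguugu

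The last set holds miRNAs that were lower in allografts, with miR-125b-5p, which shares the seed of miR-351-5p and miR-125a-5p, beside them.
miR-184: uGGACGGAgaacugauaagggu
miR-224-5p: cAAGUCACuagugguuccguuu
miR-182: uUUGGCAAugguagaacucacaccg
miR-183-5p: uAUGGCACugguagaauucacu
miR-204-5p: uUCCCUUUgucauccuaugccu
miR-211-5p: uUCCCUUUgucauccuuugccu
miR-127-3p: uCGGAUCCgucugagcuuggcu
miR-541-5p: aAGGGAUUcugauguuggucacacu
miR-351-5p: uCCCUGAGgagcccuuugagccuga
miR-125a-5p: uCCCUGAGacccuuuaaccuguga
miR-125b-5p: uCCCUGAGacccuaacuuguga

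The RPM denominators of the 6 graft libraries ran from 11001459 to 12153889 reads, of which between 2909562 and 5999048 fell on listed miRNAs. The share of reads on listed miRNAs was 36.8%, 54.5% and 48.8% in isografts 12, 34 and 56 and 33.9%, 26.4% and 46.3% in allografts 12, 34 and 56 (exact permutation test, two-sided p = 0.2, where 3 against 3 libraries cannot give a p below 0.1). The first principal component of the tested miRNAs held 57.0% of the variance and separated the groups, with isografts between -10.73 and -8.14 and allografts between 8.45 and 9.88. The second held 35.3% and separated libraries within groups, with isograft 12 at -10.72 and allograft 34 at -7.83 on one side, isograft 34, isograft 56 and allograft 56 at 6.52, 5.38 and 8.28 on the other, and allograft 12 at -1.64. A factor that would bring the libraries to a common median ratio ran from 0.731 in isograft 12 to 1.415 in isograft 34, and from 0.692 in allograft 34 to 1.252 in allograft 56. Isograft 12 and allograft 34 thus have the lowest factor of their groups and lie at 1 end of the second component. List counts without both are given where they change. Among allografts, however, 12 and 34 were closest (median absolute log2 difference 0.257), and 56 differed from them by 0.587 and 0.821.

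Of the 271 miRNAs, 73 differed between allografts and isografts, or 26.9% of those tested (limma on log2(RPM + 1), adjusted p under 0.05 after Benjamini-Hochberg correction). The 32 that were higher in allografts made up 11.8% and the 41 that were lower made up 15.1%. In what follows rose and fell mean that a miRNA passed this test, and fold changes are log2 differences of RPM + 1, which understate the change of low miRNAs. The rises were larger than the falls. Among the 32, 15 rose at least 4-fold, with a median of 1.91 and a maximum of 4.34, while none of the 41 fell 4-fold, with a median of -1.35 and an extreme of -1.86. The median over all 271 was -0.29, and single lists are read against that value. The groups did not overlap in 109 miRNAs, 40.2% of those tested, with allografts higher in 46 (17%) and lower in 63 (23.2%). These took in all 32 that rose and 38 of the 41 that fell, the exceptions being miR-200b-5p, miR-204-5p and miR-708-5p. The 9 rises and 7 falls that passed the filter through 1 group only could not overlap.

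RPM leaves the libraries on different medians, so the calls were also made after 3 other scalings. Scaling to a common median ratio moved the median of all miRNAs from -0.29 to 0.00 and called 81 higher (29.9%) and 73 lower (26.9%). Scaling each library to its listed sum, over all 765 miRNAs, moved it to 0.10 and called 79 higher (29.2%) and 53 lower (19.6%), and scaling to that sum without miR-184 moved it to -0.22 and called 61 higher (22.5%) and 100 lower (36.9%). The share of calls that were higher was 43.8% as reported and 52.6%, 59.8% and 37.9% in these. All 32 rises and all 41 falls were called in the same direction under each of the 3. Tests on recovered whole reads, with scalings of their own, called 77 higher (28.4%) and 78 lower (28.8%) with edgeR and 82 higher (30.3%) and 77 lower (28.4%) with DESeq2.

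**Figure D1:**
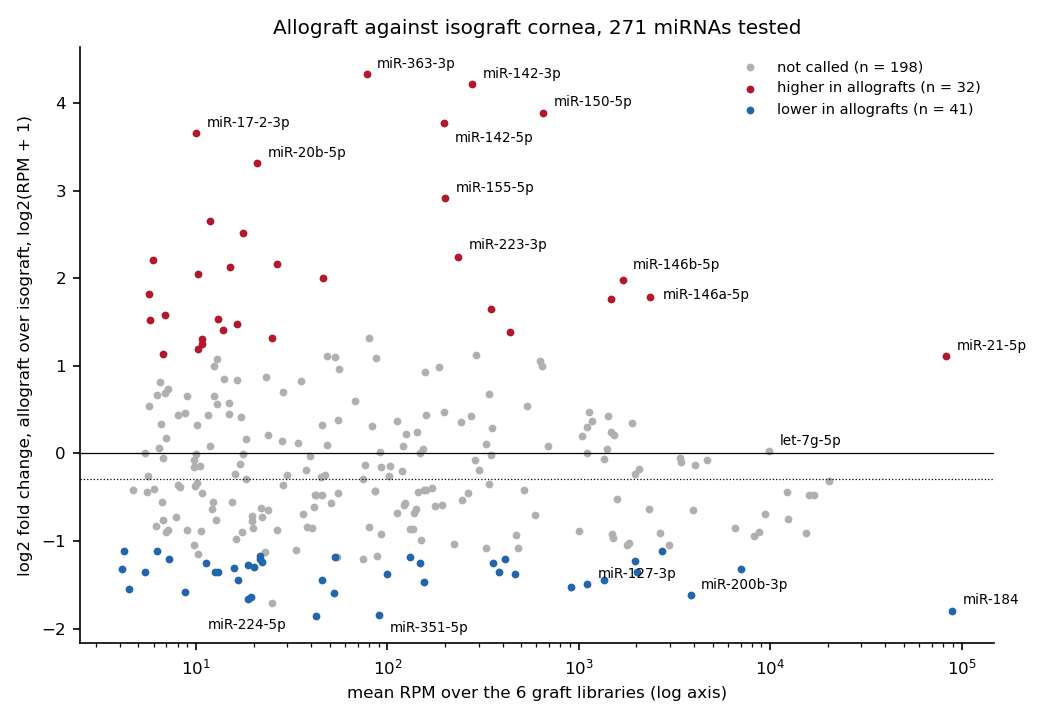
Mean RPM over the 6 graft libraries (log axis) against the log2 fold change of allografts over isografts for each of the 271 miRNAs tested, coloured by call, with the median of all at the dotted line. Rises reach 4.34 for miR-363-3p and falls reach -1.86 for miR-224-5p, and miR-21-5p and miR-184 stand alone at the right.

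The filter itself shaped a few calls. There were 9 miRNAs that passed it only through the 3 allografts and 7 that passed only through the 3 isografts, and such miRNAs had to differ. The 9 were miR-7b, miR-17-2-3p, miR-18a-5p, miR-20b-5p, miR-21-3p, miR-146a-3p, miR-146b-3p, miR-150-3p and miR-187-3p, and the 7 were miR-181a-2-3p, miR-329-5p, miR-329-3p, miR-370-3p, miR-433-3p, miR-452-5p and let-7c-1-3p. Of the other 255 tested, 23 rose and 34 fell, and 212 reached 5 RPM in all 6 grafts. Just inside the filter lay miR-329-5p, with 5.02 RPM in the library that decided its entry, and miR-24-1-5p with 5.09. Just outside lay miR-582-5p with 4.73 and miR-485-3p with 4.64.

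miRNAs of white blood cells rose in allografts. miR-142-3p, made throughout the blood cell lineages, was at 11.3, 47.5 and 34.7 RPM in isografts 12, 34 and 56 and at 442.8, 465.4 and 667.4 RPM in allografts 12, 34 and 56. Every allograft was above every isograft, and the log2 fold change was 4.22 (SE 0.50, adjusted p = 8.06e-06, limma, n = 3 per group). Its partner arm miR-142-5p was at 13.1, 34.3 and 33.5 RPM in isografts and 274.1, 294.9 and 541.9 in allografts, again without overlap, and rose by 3.78 (SE 0.48). In normal corneas miR-142-3p was at 4.0, 1.64 and 2.82 RPM.

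miR-150-5p, which is abundant in resting lymphocytes, was at 53.7, 79.7 and 106.5 RPM in isografts and at 988.7, 863.3 and 1820 RPM in allografts. It rose by 3.89 (SE 0.44, adjusted p = 5.72e-06, limma), and the groups lay far apart, while normal corneas had 32.7, 30.1 and 26.9 RPM. miR-223-3p, a miRNA of granulocytes and monocytes, was at 46.6, 99.5 and 101.1 RPM in isografts and 252.2, 414.6 and 492.2 in allografts. Every allograft was higher, and it rose by 2.24 (SE 0.46, adjusted p = 0.00187). miR-342-3p, which is found in lymphoid and myeloid cells, lay at 15, 18.7 and 18.6 RPM in isografts and at 68.2, 56.8 and 99.6 RPM in allografts. It rose by 2.01 (SE 0.43, adjusted p = 0.00276) without overlap.

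The leukocyte lineage list held 10 miRNAs, of which 8 were tested and 8 rose, with a median of 2.45, or 7 of 7 with a median of 2.24 when miR-150-3p, which had to differ, is set aside. Besides those above they were miR-150-3p (2.66, SE 0.37), miR-223-5p (2.16, SE 0.41) and miR-511-3p (2.13, SE 0.46), from a gene of macrophages and dendritic cells. The summed level of the list ran from 152.5 to 312.5 RPM in isografts, from 2111 to 3736 RPM in allografts and from 54.2 to 67.0 RPM in normal corneas. The count stayed at 8 without each library in turn and under each of the 3 other scalings. The 2 members too low to test were miR-342-5p, at 0.329, 0.364 and 0.454 RPM in isografts and 3.00, 1.91 and 2.09 in allografts, and miR-511-5p, at 1.07, 1.55 and 1.82 against 2.82, 3.45 and 4.09. In such bulk samples more cells of a type and more RNA per cell cannot be told apart.

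**Figure D2:**
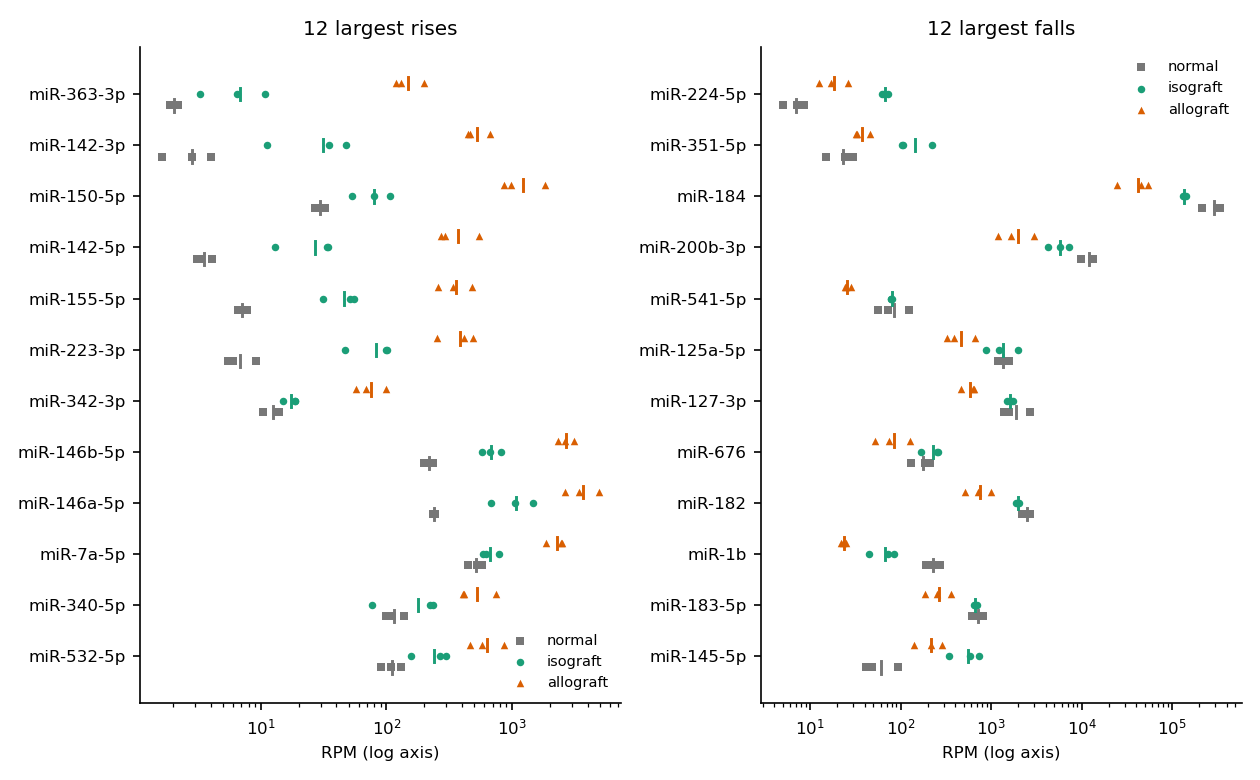
RPM (log axis) of the 12 largest rises and 12 largest falls in each library, one row per miRNA, with squares for normal corneas, circles for isografts, triangles for allografts and a bar at each group mean. For every miRNA shown the 3 allografts lie wholly to one side of the 3 isografts, with a log2 fold change of 4.34 for miR-363-3p at the top and of 1.39 for miR-532-5p at the bottom of the rises.

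miRNAs switched on in activated immune cells rose too. miR-155-5p, induced in activated lymphocytes and macrophages, was at 31.4, 55.5 and 51.0 RPM in isografts and at 337, 255.3 and 475.8 RPM in allografts. The groups did not overlap and the rise was 2.92 (SE 0.44, adjusted p = 0.000101, limma), while normal corneas were at 6.81, 6.63 and 7.72 RPM. Its passenger arm miR-155-3p did not reach the filter. It was at 0.165, 0.273 and 0.273 RPM in isografts, where 3 reads are 0.247 to 0.273 RPM, and at 3.82, 2.54 and 4.27 RPM in allografts.

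The miR-146 pair, which is induced by NF-kB and dampens signalling from Toll-like receptors, was far more abundant. miR-146a-5p was at 679.8, 1480 and 1064 RPM in isografts and at 3434, 2615 and 4931 RPM in allografts, a rise of 1.79 (SE 0.42, adjusted p = 0.00483). miR-146b-5p was at 571.3, 814 and 665.4 RPM in isografts and at 2657, 2333 and 3124 RPM in allografts, a rise of 1.99 (SE 0.38, adjusted p = 0.00141). Neither overlapped between groups, and their 3p arms rose by 1.83 (SE 0.37) for miR-146a-3p and 1.59 (SE 0.36) for miR-146b-3p, both having passed the filter through the allografts only. As the sequences above show, the pair share their first bases and differ only near the 3′ end, so the split of reads between them is uncertain. The summed RPM of their seed rose by 1.87 (SE 0.41, adjusted p = 0.00434).

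miR-21-5p, which is raised in wound repair and inflammation and was the second most abundant miRNA of the grafts, gave a less firm rise. It took 2.92%, 7.19% and 6.24% of all reads in isografts 12, 34 and 56 and 10.2%, 8.96% and 14.5% in allografts 12, 34 and 56. The allografts were all higher, and the log2 fold change was 1.11 (SE 0.38, adjusted p = 0.0404, limma). The call was lost without any of the libraries other than isograft 34, with an adjusted p of up to 0.121. Its passenger arm miR-21-3p, which passed the filter through the allografts only, was at 1.56, 4.73 and 4.0 RPM in isografts and 12, 15.2 and 23.7 in allografts and rose by 2.05 (SE 0.41, adjusted p = 0.00176).

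In the immune activation list 8 of the 9 tested members rose, out of 13 listed, with a median of 1.83. Setting aside miR-21-3p, miR-146a-3p and miR-146b-3p, which had to differ once they had passed the filter through the allografts, 5 of 6 rose, with a median of 1.89. The eighth was miR-147, which is induced by Toll-like receptors in macrophages, at 1.89, 6.27 and 6.27 RPM in isografts and 27.2, 24.4 and 39.3 in allografts (2.52, SE 0.44). The member that did not pass was miR-132-3p, a miRNA driven by CREB, at 5.6, 12.3 and 14 RPM in isografts and 8.45, 8.91 and 9.09 in allografts (-0.16, SE 0.40). The other miRNAs of the miR-132 and miR-212 hairpins did not reach the filter. miR-212-5p lay at 2.80, 6.00 and 5.45 RPM in isografts and 1.82, 1.64 and 2.0 in allografts, miR-212-3p at 1.15, 3.00 and 3.45 against 3.09, 2.0 and 3.91, and miR-132-5p at 0.741, 3.27 and 2.64 against 1.09, 2.64 and 1.91. Without each library in turn 7 or 8 members rose, and the call that was lost was that of miR-21-5p.

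The largest rise of all was that of miR-363-3p, from the X-linked miR-106a-363 cluster, a relative of the miR-17-92 cluster that promotes proliferation. It was at 3.29, 10.8 and 6.45 RPM in isografts and at 129.7, 118.5 and 198 RPM in allografts. The groups were far apart, and the log2 fold change was 4.34 (SE 0.47, adjusted p = 4.42e-06, limma). Normal corneas had 2.09, 1.91 and 2.18 RPM.

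Other miRNAs of the same cluster rose from very low levels. miR-20b-5p was at 1.23, 4.27 and 4.0 RPM in isografts and at 34.9, 30.6 and 50.2 RPM in allografts, a rise of 3.32 (SE 0.43). miR-17-2-3p was at 0.165, 1.00 and 0.363 RPM in isografts and at 13.6, 11.9 and 32.8 RPM in allografts, a rise of 3.66 (SE 0.40). Both had passed the filter through the allografts only. miR-20b-3p, which did not reach the filter, was at 0, 0.0909 and 0.273 RPM in isografts and 3.82, 2.91 and 4.91 in allografts.

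The related miR-17-92 cluster moved less. miR-18a-5p rose by 2.21 (SE 0.39), having passed through the allografts only, and miR-19a-3p rose by 1.54 (SE 0.43, adjusted p = 0.0168). The call of miR-19a-3p was lost without allograft 12 or allograft 34 (adjusted p up to 0.0672). miR-17-5p, at 83.7, 251.6 and 238.9 RPM in isografts and 309.7, 311.7 and 550.4 in allografts, did not pass (1.13, SE 0.48, adjusted p = 0.0924), and neither did miR-20a-5p (1.00, SE 0.49) or miR-92a-3p (0.37, SE 0.40). In the list of the miR-17-92 and related clusters, with 25 listed, 13 were tested, 5 rose, none fell and the median was 1.11. Of the 5, miR-18a-5p, miR-20b-5p and miR-17-2-3p had to differ, and without them 2 of 10 rose, with a median of 0.98. Without isograft 12 and allograft 34 the list still had 5 rises, with a median of 0.75. After scaling the libraries to a common median ratio 12 of the 13 rose, 12 did so when scaled to the listed sum and 9 to that sum without miR-184. Without each library in turn 4 or 5 rose.

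These miRNAs can also be set against close relatives by their ratio of RPM within a library, which no scaling alters. miR-363-3p and miR-92a-3p share the seed AUUGCAC, and their RPM ratio was 0.00378, 0.00965 and 0.00641 in isografts and 0.109, 0.126 and 0.106 in allografts. miR-20b-5p and miR-17-5p share AAAGUGC, and their ratio was 0.0147, 0.017 and 0.0167 in isografts and 0.113, 0.0983 and 0.0911 in allografts. The mean log2 of these ratios, taken without a pseudocount, differed by 4.20 and 2.64 between groups. Both pairs were chosen after their values were seen and miR-20b-5p passed the filter through the allografts only, so these ratios are a description. Summed over a seed, the changes did not pass. The 5 tested miRNAs with the seed of miR-363-3p summed to a log2 fold change of 0.37 (SE 0.41, adjusted p = 0.503), and the 5 with that of miR-20b-5p to 0.86 (SE 0.49, adjusted p = 0.209). Since miR-20b-5p and miR-17-5p differ by few bases, how reads were divided between them is uncertain.

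**Figure D3:**
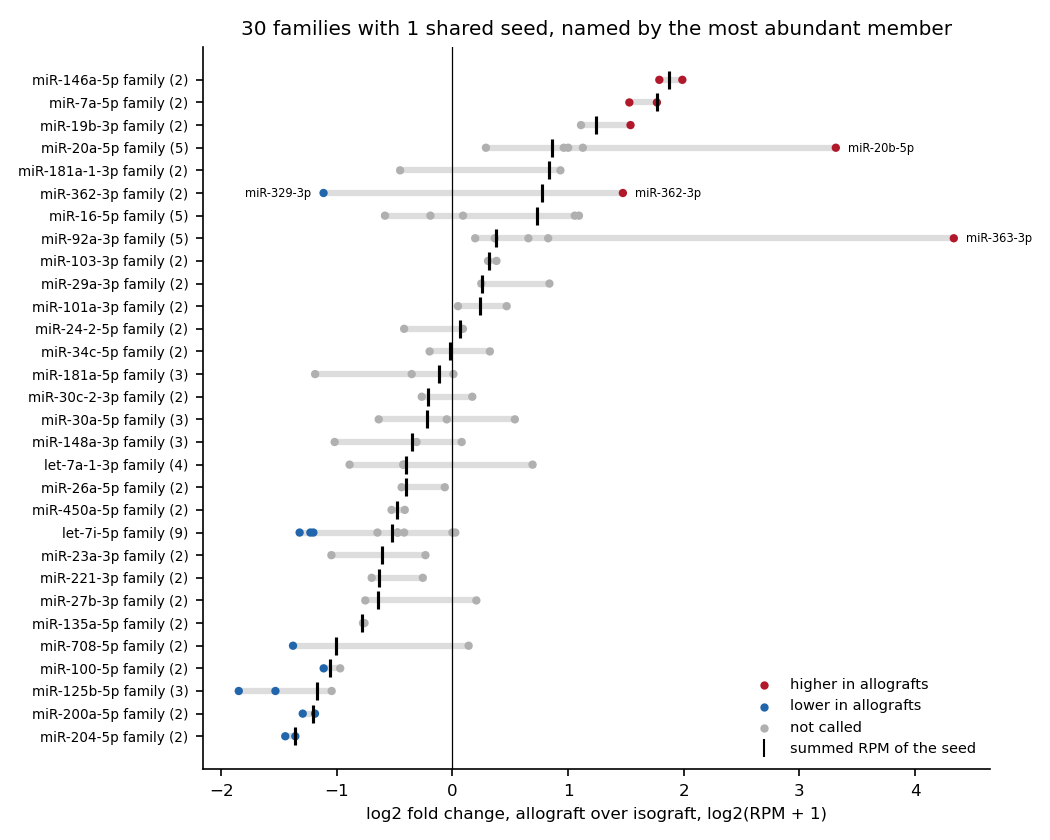
Log2 fold change of allografts over isografts for the 82 miRNAs of the 30 seeds shared by at least 2 tested miRNAs of known sequence. There is one row per seed, with points coloured by call and a bar for the summed RPM. miR-363-3p at 4.34 and miR-20b-5p at 3.32 lie far to the right of their families' sums, and miR-362-3p and miR-329-3p lie on either side of 0.

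Seeds as a whole were compared by summing the RPM of all listed miRNAs with a mature sequence at hand and the same bases 2 to 8. Tested miRNAs without one, among them miR-200b-3p, miR-429, miR-30d-5p and miR-99a-5p, entered no sum. Mature sequences were at hand for 242 of the 271 tested miRNAs, and of 191 seeds tested 53 differed, or 27.7%, with 22 higher (11.5%) and 31 lower (16.2%). Without each library in turn between 19 and 94 differed, the lowest without allograft 12 and the highest without isograft 12. Most of these seeds have 1 tested member and repeat its result. Seeds whose sum passed the same filter through 1 group only had to differ and are counted here. Among the 22 they included the seeds of miR-17-2-3p, miR-18a-5p, miR-21-3p, miR-146a-3p, miR-146b-3p and miR-17-1-3p. Among the 30 shared seeds 2 rose, those of miR-146a-5p with miR-146b-5p and of miR-7a-5p with miR-7b. The 2 that fell were those of miR-204-5p with miR-211-5p (-1.36, SE 0.47, adjusted p = 0.0391) and of miR-200a-5p with miR-200b-5p (-1.21, SE 0.40, adjusted p = 0.0349). Both of these falls were lost without isograft 34, isograft 56, allograft 12 or allograft 34 (adjusted p up to 0.187 and 0.162), and the rise of the miR-7 seed without allograft 12 (0.0543).

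A single shared seed, ACACACC, had members that moved in opposite directions. miR-362-3p, of an X-linked cluster, was at 2.96, 10.6 and 12.7 RPM in isografts and 17.6, 19.5 and 34.4 in allografts and rose by 1.47 (SE 0.48, adjusted p = 0.0336). miR-329-3p, of the imprinted Dlk1-Dio3 cluster, was at 6.25, 6.09 and 5.82 RPM in isografts and 1.82, 2.0 and 3.09 in allografts and fell by 1.11 (SE 0.33, adjusted p = 0.0211), having passed the filter through the isografts only. Their sum changed by 0.78 (SE 0.40, adjusted p = 0.168), which did not pass. The call of miR-362-3p was lost without any of the allografts (adjusted p up to 0.0981), and that of miR-329-3p without any library but isograft 12 or allograft 56 (up to 0.141).

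miR-7a-5p, best known from neurons, endocrine cells and as a regulator of growth factor signalling, was at 592.5, 785.8 and 623.4 RPM in isografts and at 2441, 1879 and 2507 RPM in allografts. It rose by 1.77 (SE 0.38, adjusted p = 0.00311, limma) without overlap, from levels close to those of normal corneas, which had 448.7, 576.4 and 529.3 RPM. Its near-identical relative miR-7b was at 1.81, 3.36 and 2.27 RPM in isografts and 10.5, 7.0 and 9.54 in allografts (1.53, SE 0.35), passed the filter through the allografts only, and may share reads with it. The pair were the only members of the neuron list that rose, 2 of 5 tested out of 21 listed, with a list median of 0.74. Under each of the 3 other scalings 4 of the 5 rose, with miR-7a-1-3p (0.74 as reported) and miR-128-3p (0.47) added. miR-7b had to differ, and without it 1 of 4 rose as reported. The defining neuronal miR-124-3p was at no more than 0.182 RPM in isografts and 0.273 RPM in allografts, or 3 reads.

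Several other rises belonged to an X-linked cluster of miR-188, miR-362, miR-500, miR-501 and miR-532 hairpins. Of its tested miRNAs miR-362-3p, miR-501-3p and miR-532-5p rose, while miR-362-5p (1.00, SE 0.44) and miR-532-3p (0.85, SE 0.45) did not pass. miR-532-5p was at 157.1, 265.6 and 298.8 RPM in isografts and 574, 463.8 and 856.1 RPM in allografts and rose by 1.39 (SE 0.43, adjusted p = 0.0256), and the call was lost without any 1 of the allografts (adjusted p up to 0.125). miR-501-3p rose by 1.25 (SE 0.37), also lost without isograft 34, isograft 56, allograft 12 or allograft 34 (adjusted p up to 0.117). miR-340-5p was at 76.4, 233.1 and 222.6 RPM in isografts and 415.7, 406.8 and 743.7 RPM in allografts and rose by 1.66 (SE 0.48, adjusted p = 0.0209), which was lost without allograft 12 or allograft 34 (up to 0.088). The remaining rises outside the lists were miR-15a-5p (1.41), miR-466c-5p (1.32), miR-130b-5p (1.19) and miR-187-3p (1.14), none with a mean of 50 RPM in allografts, and each was lost without at least 3 of the 6 libraries (adjusted p up to 0.171).

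Of the miRNAs that fell, the most abundant was miR-184, the leading miRNA of the corneal epithelium. It took 13.5%, 14.4% and 13.2% of all reads in isografts 12, 34 and 56 and 4.54%, 2.48% and 5.45% in allografts 12, 34 and 56, against 21.4%, 34% and 31.2% in normal corneas. The isografts lay close together and well above each allograft (mean 13.7% ± 0.62 against 4.15% ± 1.52, SD, n = 3 each; exact permutation test, two-sided p = 0.1, the smallest possible). miR-184 fell by 1.79 (SE 0.36, adjusted p = 0.00176, limma), and the call was kept without each library in turn. Listed miRNAs other than miR-184 held 33.0% ± 8.70 of isograft reads and 31.4% ± 8.63 of allograft reads (SD, exact permutation test, p = 1).

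The other epithelial miRNAs had lower means in allografts, though most did not pass as reported. Of the corneal and squamous epithelium list 3 of 9 tested members fell, out of 14 listed, with a median of -0.90. Besides miR-184 these were miR-182 and miR-183-5p, which come from 1 cluster of epithelial and sensory cells. miR-182 was at 1972, 2056 and 1872 RPM in isografts and at 716.3, 514.2 and 1005 RPM in allografts, without overlap (-1.45, SE 0.40, adjusted p = 0.0144). miR-183-5p was at 653, 694.4 and 656.4 RPM in isografts and at 254.1, 185 and 357.8 RPM in allografts (-1.38, SE 0.41, adjusted p = 0.0211). Both calls were lost without isograft 56, allograft 12 or allograft 34, and that of miR-183-5p also without isograft 34, with adjusted p of up to 0.0933 and 0.125. In the 3 other scalings 6, 3 and 8 of the 9 fell, with edgeR and with DESeq2 7 each, and without isograft 12 and allograft 34 together 6. The keratinocyte miRNA miR-205 was at 5763, 14530 and 13180 RPM in isografts and 4034, 3832 and 11160 in allografts and overlapped (-0.89, SE 0.47, adjusted p = 0.16). miR-203a-3p, of differentiating keratinocytes, overlapped as well (-0.90, SE 0.44, adjusted p = 0.131). Without each library in turn the count of falls in the list ran from 1 to 9, the highest without isograft 12.

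The miR-200 family, which holds cells in the epithelial state by repressing ZEB factors, had 3 of 7 tested members lower out of 9 listed, with a median of -1.03. miR-200b-3p was at 4252, 7233 and 5721 RPM in isografts and at 1669, 1202 and 3004 RPM in allografts. The groups did not overlap and it fell by 1.62 (SE 0.42, adjusted p = 0.00927), a call lost without allograft 12 or allograft 34 (adjusted p up to 0.079). The other 2 falls were those of the 5p arms miR-200a-5p (-1.19, SE 0.43) and miR-200b-5p (-1.29, SE 0.47), of which the latter overlapped between groups. Both were lost without isograft 34, isograft 56, allograft 12 or allograft 34 (adjusted p up to 0.193 and 0.238). miR-200c-3p, miR-429, miR-200a-3p and miR-141-3p did not pass, with values of -0.92, -1.03, -0.88 and -0.29, and reads of miR-200b-3p and miR-429 may be shared. The number of falls ran from 0 without allograft 12 or allograft 34 to 6 without isograft 12 or allograft 56, and was 5, 3 and 6 under the 3 other scalings.

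miR-204 and miR-211, related miRNAs of pigmented and secretory epithelia of the eye, fell together. miR-204-5p was at 1914, 3564 and 3059 RPM in isografts and at 975.6, 657.9 and 1926 RPM in allografts, where allograft 56 just exceeded isograft 12 (-1.36, SE 0.45, adjusted p = 0.0336). miR-211-5p was at 21.0, 30.6 and 20.8 RPM in isografts and at 7.72, 4.82 and 13.8 RPM in allografts (-1.45, SE 0.43, adjusted p = 0.0218). miR-204-3p did not pass (-1.15), so 2 of 3 tested members fell out of 4 listed, with a median of -1.36. Without isograft 34, allograft 12 or allograft 34 none of the 3 fell, and without isograft 56 only miR-211-5p did, with adjusted p of up to 0.173 and 0.147 for the first and second. Under each of the 3 other scalings all 3 did.

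The imprinted Dlk1-Dio3 cluster, a large set of miRNA genes expressed from the maternal chromosome in embryonic, neural and mesenchymal cells, had the largest number of falls of any list. Of 82 members listed 25 were tested and 15 fell, none rose, the median was -1.18 and in 20 the groups did not overlap. Over all 271 tested, 15.1% fell and 40.2% did not overlap, with allografts lower in 23.2%. Of the 15, miR-329-3p, miR-329-5p, miR-370-3p and miR-433-3p had passed the filter through the isografts only and had to differ, and without them 11 of 21 fell, with a median of -1.17. These members could not overlap either and are counted in the 20. The summed level ran from 2824 to 3224 RPM in isografts, from 987.7 to 1379 RPM in allografts and from 2687 to 5150 RPM in normal corneas.

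The member with the highest level was miR-127-3p, at 1758, 1489 and 1657 RPM in isografts and at 646, 468.7 and 635.6 RPM in allografts. Isografts were closely alike and all above the allografts, and it fell by 1.5 (SE 0.39, adjusted p = 0.00927). miR-541-5p was at 80.5, 79.0 and 78.6 RPM in isografts and at 28.0, 24.2 and 24.7 RPM in allografts (-1.60, SE 0.41, adjusted p = 0.00927). miR-409a-3p was at 31.6, 28.8 and 26.0 RPM in isografts and at 10.5, 6.54 and 8.63 RPM in allografts (-1.66, SE 0.40, adjusted p = 0.00608), and its call was kept without each library. miR-382-5p fell by 1.64 (SE 0.41), a call lost without allograft 12 (adjusted p = 0.0959). The value nearest 0 among those tested was that of miR-136-5p at -0.36, which did not pass.

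The count of falls in the Dlk1-Dio3 cluster moved with single libraries. It was 23 without isograft 12, 15 without allograft 56, 8 without isograft 34, 5 without isograft 56, 4 without allograft 34 and 3 without allograft 12. The calls of miR-127-3p and miR-541-5p were both lost without isograft 56 or allograft 12, each with an adjusted p of up to 0.0672, and that of miR-127-3p also without allograft 34. With the libraries brought to a common median ratio the cluster had 20 falls, and between 15 and 19 without each library. The list medians under the 3 other scalings were -0.89, -0.80 and -1.11.

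The largest fall by size was that of miR-224-5p, an X-linked miRNA from an intron of a GABA receptor gene. It was at 62.1, 72.9 and 65.1 RPM in isografts and at 16.8, 12.5 and 25.9 RPM in allografts. The groups were far apart (-1.86, SE 0.43, adjusted p = 0.00478), the call was kept without each library, and normal corneas were lower than either, at 8.63, 5.0 and 7.18 RPM. miR-452-5p, made from the same intron, was at 6.75, 10.3 and 7.45 RPM in isografts and at 2.0, 1.82 and 4.18 RPM in allografts, and was at 0.363, 0.545 and 0.363 RPM in normal corneas. It fell by 1.36 (SE 0.36, adjusted p = 0.0118), having passed the filter through the isografts only, and the call was lost without isograft 34, allograft 12 or allograft 34 (adjusted p up to 0.108).

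miR-351-5p, the rodent miRNA with the seed of miR-125, was at 105, 224.4 and 102.8 RPM in isografts and at 32.5, 32.7 and 46.1 RPM in allografts. It fell by 1.85 (SE 0.45, adjusted p = 0.00665), lost without isograft 34 or allograft 12 (up to 0.0734). miR-125a-5p was at 877.1, 1959 and 1209 RPM in isografts and at 393.3, 328 and 664.6 RPM in allografts (-1.53, SE 0.44, adjusted p = 0.018), lost without isograft 34, allograft 12 or allograft 34 (up to 0.119). miR-125b-5p overlapped between groups and did not pass (-1.04, SE 0.44, adjusted p = 0.0909), nor did the summed RPM of the shared seed (-1.17, SE 0.46, adjusted p = 0.0667). These sequences begin alike, so reads may be divided differently among them.

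miR-351 lies in the X-linked cluster of miR-322, miR-503 and miR-351, whose list had 2 of 8 tested members lower out of 12 listed and a median of -0.48. The 3 other scalings gave 3, 2 and 3 falls beside 1, 0 and 0 rises. The other fall was that of miR-503-3p (-1.31, SE 0.42, adjusted p = 0.0335), lost without isograft 34, isograft 56, allograft 12 or allograft 34 (up to 0.177). miR-503-5p (0.87, SE 0.56) did not pass, and neither did miR-322-5p (0.09, SE 0.53).

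miRNAs of fibroblasts and smooth muscle were mostly below the median of all miRNAs without passing. In the stroma and mesenchyme list 1 of 13 tested members fell out of 14 listed, with a median of -0.90. This was miR-145-5p, at 343.1, 727.7 and 585.8 RPM in isografts and at 215.5, 141.5 and 285.2 RPM in allografts, while normal corneas had 94.6, 41.2 and 48.1 RPM. The groups did not overlap (-1.35, SE 0.44, adjusted p = 0.0336), and the call was lost without isograft 34, isograft 56, allograft 12 or allograft 34 (up to 0.169). Its cluster partner miR-143-3p overlapped between groups, at 7599, 13100 and 14370 RPM against 8046, 5042 and 8300 (-0.69, SE 0.39, adjusted p = 0.187). The cartilage and fibroblast miRNA miR-140-5p stood at 0.60 and miR-140-3p at 0.43, apart from the rest of the list. Without isograft 12 the list had 11 falls and without allograft 56 it had 6, without both isograft 12 and allograft 34 it had 8, and without any other single library it had none. The 3 other scalings gave 8, 3 and 10 falls beside 2, 2 and 1 rises.

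The let-7 family, which is known for restraining proliferation, split by member. let-7c-5p was at 8530, 11590 and 9611 RPM in isografts and at 3675, 2754 and 6014 RPM in allografts and fell by 1.32 (SE 0.39, adjusted p = 0.0211). let-7b-5p (-1.23, SE 0.41) and let-7e-5p (-1.20, SE 0.42) fell by similar amounts. let-7g-5p, with the same seed, was at 8456, 11160 and 9573 RPM in isografts and 10340, 7971 and 11560 in allografts, with a log2 fold change of 0.03 (95% interval -0.73 to 0.78). Of 16 tested members out of 21 listed 4 fell, with a median of -0.45, or 3 of 15 without let-7c-1-3p, which had to differ. The 3 other scalings gave 5, 4 and 6 falls beside 2, 1 and 1 rises, and without isograft 12 and allograft 34 together 5 fell. None fell without isograft 34, isograft 56, allograft 12 or allograft 34 (adjusted p of let-7c-5p up to 0.111). The 9 tested miRNAs with this seed summed to -0.52 (SE 0.35, adjusted p = 0.28, limma). Some of them, such as let-7a-5p and let-7c-5p, differ by a single base, so reads may be shared, while let-7c-5p and let-7g-5p differ at several.

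Outside the lists 9 miRNAs fell, of which miR-224-5p, miR-452-5p and miR-125a-5p are described above. The others were miR-676 (-1.47, SE 0.45), miR-320-3p (-1.25, SE 0.42), both arms of miR-708 (-1.38 and -1.24), miR-125b-2-3p (-1.25, SE 0.43) and miR-100-5p (-1.11, SE 0.39). miR-100-5p was at 3192, 4193 and 3767 RPM in isografts and at 1935, 1230 and 2089 RPM in allografts. These 6 calls were each lost without isograft 34, isograft 56, allograft 12 or allograft 34, with adjusted p of up to 0.21.

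**Figure D4:**
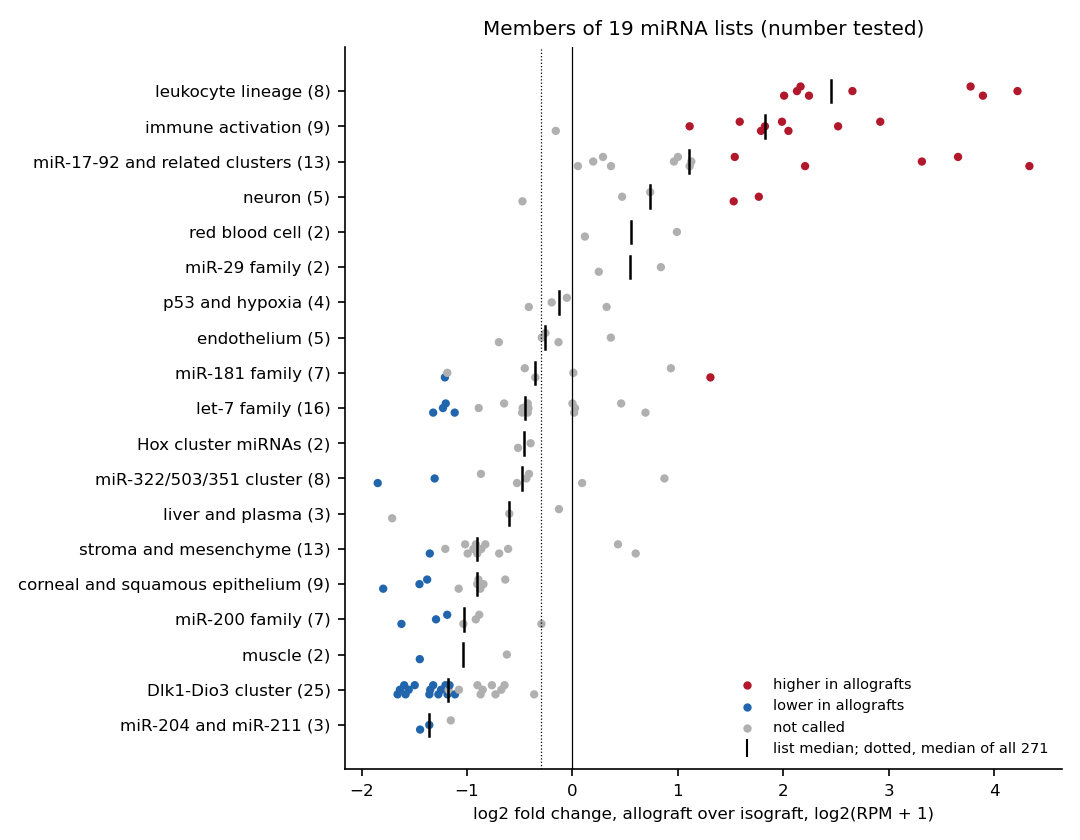
Log2 fold change of allografts over isografts for the tested members of 19 miRNA lists, one row per list with the number tested, coloured by call, with a bar at the list median and a dotted line at the median of all 271 miRNAs. Leukocyte lineage and immune activation lie highest, at medians of 2.45 and 1.83, and the Dlk1-Dio3 cluster and miR-204 with miR-211 lie lowest, at -1.18 and -1.36.

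Lists of other cell types and states had few calls, but most are short. Over all 271 tested 26.9% were called, so 0 calls among 2 to 5 members are not read as a result. The endothelium list had 0 of 5 tested members called (median -0.26), with miR-126a-3p, the defining miRNA of endothelial cells, at 2025, 5870 and 5376 RPM in isografts and 3910, 2806 and 4428 in allografts (-0.13, SE 0.44). The sign of this median turned under 2 of the 3 other scalings, to 0.05 and 0.15, and 1 member fell under the scaling without miR-184. The Hox cluster miRNAs had 0 of 2 called, with miR-10a-5p at -0.40 (median -0.46), the miR-29 family 0 of 2 (median 0.55) and the p53 and hypoxia list 0 of 4 (median -0.13, or 0.16 and 0.26 under 2 other scalings, each with 1 rise). miR-29b-3p, of a family that represses collagens, stood at 0.84 and rose under each of the 3 other scalings, where the medians of its family were 0.84, 0.94 and 0.61. In the miR-181 family, which tunes lymphocyte signalling, 1 of 7 rose and 1 fell, both passenger arms: miR-181b-1-3p at 1.31 and miR-181a-2-3p at -1.21. miR-181a-2-3p had passed the filter through the isografts only and had to differ. Without it 1 of 6 rose and 0 fell, with a median of -0.17. The first call was lost without any of the allografts (adjusted p up to 0.138) and the second without any library but isograft 12 or allograft 56 (up to 0.125). Its abundant miR-181a-5p stood at 0.01 (95% interval -0.95 to 0.97), and the list median of -0.35 became 0.06 when libraries were scaled to their listed sum. Each of the 3 other scalings gave 2 rises and 2 falls, and leaving out isograft 12 and allograft 34 gave 1 and 2.

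The muscle list had 1 fall among 2 tested of 16 listed, and 9 were listed at 0 in all grafts. miR-1b was at 45.2, 73.3 and 85.3 RPM in isografts and at 24.8, 22.2 and 23.4 RPM in allografts, while normal corneas had 272.9, 225.2 and 192.8 RPM. It fell by 1.45 (SE 0.43, adjusted p = 0.0211) without overlap, and the call was lost without isograft 34, isograft 56, allograft 12 or allograft 34 (up to 0.141). The defining muscle miRNAs were close to 0, with miR-1-3p at 1.89, 1.18 and 1.36 RPM in isografts and 0.364, 0.909 and 0.273 in allografts. In allograft 34 alone miR-206-3p reached 6.09 RPM and miR-133a-3p 5.18 RPM.

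Within single groups a few miRNAs varied far more than the rest, whose median within-group SD was 0.49 on the log2 scale. The red blood cell miRNAs miR-486, at 110.7, 10.4 and 21.9 RPM in isografts and 15.3, 945.7 and 13.8 in allografts, and miR-451-5p, at 69.5, 3.00 and 5.91 against 3.82, 120.1 and 3.27, were high in isograft 12 and allograft 34. The liver and plasma miRNA miR-122-5p was at 75.0, 38.2 and 0.727 RPM in isografts and 1.18, 32.7 and 1.00 in allografts. Where 26.9% of all tested were called, the red blood cell list had 0 of 2 and the liver and plasma list 0 of 3. Their medians were 0.56 (-0.13 without isograft 12 and allograft 34) and -0.60. Without those libraries miR-122-5p fell, and when scaled without miR-184 miR-192-5p did. Isograft 12 and allograft 34 are also the libraries at 1 end of the second principal component, and the part of blood in the other results was not tested beyond leaving them out. Without both, the leukocyte list still had 8 rises, immune activation 8, miR-200 had 5 falls, miR-204 with miR-211 had 3 and the Dlk1-Dio3 cluster had 20.

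On RPM as deposited, the interval of the difference lay within 2-fold for several abundant miRNAs. The 3 other scalings move these values along with the median of all miRNAs. Among the 58 with a mean of at least 500 RPM, the 95% interval of the log2 fold change reached least far from 0 for let-7g-5p, followed by miR-30d-5p (-0.87 to 0.72), miR-30a-5p (-0.89 to 0.79), miR-148b-3p (-0.76 to 0.92), miR-378a-3p (-0.93 to 0.74), miR-26b-5p (-0.93 to 0.80), miR-181a-5p and miR-101a-3p (-0.89 to 0.98). Of the 10 most abundant miRNAs only miR-184 and miR-21-5p were called. Among the rest were miR-148a-3p at -0.31, miR-27b-3p at -0.75, miR-26a-5p at -0.44 and, of the let-7 family, let-7f-5p at -0.47 and let-7i-5p at -0.48. The list was completed by let-7g-5p, miR-143-3p and miR-203a-3p, described above.

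The arms of 1 hairpin are cut from the same precursor, so their ratio shows changes that the amount of precursor does not. The ratio of RPM does not depend on the scaling of a library, but with 1 RPM added to each arm, as here, that of low arms does. Of 60 hairpins with both arms tested, both arms rose in 6, both fell in 5, and in none did the arms move in opposite directions. The filter favoured this. Among the 6, the 3p arms of miR-150, miR-21, miR-146a and miR-146b passed it through the allografts only. Among the 5, both arms of miR-329 passed it through the isografts only. These arms could not move the other way. The ratio of 5p to 3p, taken on RPM + 1, differed in 3 hairpins, or 5% of those tested, rising in 2 (3.33%) and falling in 1 (1.67%), and 11 had an unadjusted p under 0.05. For miR-503 the ratio was 0.357, 0.696 and 1.17 in isografts and 2.13, 2.94 and 4.32 in allografts, a log2 change of 2.18 (SE 0.43, adjusted p = 0.0237, limma). All 3 allografts lay above the isografts, so that the 5p arm outnumbered the 3p arm in every allograft and in 1 isograft.

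For miR-150 the ratio of 5p to 3p was 17.4, 20.2 and 33.8 in isografts and 47.8, 52.3 and 62.4 in allografts, a log2 change of 1.24 (SE 0.29, adjusted p = 0.0337). For miR-21 it was 11394, 12547 and 12477 in isografts and 7847, 5541 and 5849 in allografts, a change of -0.94 (SE 0.22, adjusted p = 0.0337). The 3p arms of both were under 5 RPM in isografts, where the pseudocount weighs on the ratio, and both passed the filter through the allografts only. A gain of miR-21-3p on miR-21-5p was thus favoured by the filter, and that ratio is a description. The next in size were miR-340 (1.00, adjusted p = 0.105), miR-322 (0.96, adjusted p = 0.106) and miR-106b (0.91, adjusted p = 0.241). No arm ratio passed without isograft 34 or without allograft 34 (adjusted p up to 0.216 for miR-503, 0.216 for miR-150 and 0.216 for miR-21), the count ran up to 4 without isograft 56, and with both arms at 50 RPM or more none passed.

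Clusters were read from neighbouring hairpins in the GRCr8 gene table, whose assembly differs from that of the deposited data, so no positions are given. The 29 tested miRNAs without a mature sequence at hand, among them miR-200b-3p and miR-362-5p, were not placed in clusters. Hairpins within 10000 bases of each other on 1 strand formed 27 clusters with 102 tested miRNAs, of which 6 lie in more than 1. In none did members move both ways, 3 had rises and no falls, 9 had falls and no rises, and 15 had no call. The 3 with rises were the miR-17-92 cluster, with 2 of 6 tested, the miR-106a-363 cluster, with 3 of 6, and the cluster of miR-362, miR-501 and miR-532. The first and second share miR-17-5p, miR-19b-3p and miR-92a-3p among their 6, and miR-18a-5p in the first and miR-20b-5p and miR-17-2-3p in the second had to differ after passing the filter through the allografts. Clusters with falls included miR-183/96/182, with 2 of 3 tested, miR-99b/let-7e/125a, with 2 of 4, and miR-143/145, with 1 of 4. Among the falls in the 9, miR-370-3p, miR-433-3p and both arms of miR-329 had to differ after passing the filter through the isografts. The cluster of miR-341 and miR-370 counts among the 9 through miR-370-3p alone.

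The counts of rises and of falls moved by different amounts when single libraries were left out. Without each library in turn 21 of the 32 rises kept their call throughout, but 4 of the 41 falls did. Of the 9 rises that had to differ after the filter, all but miR-187-3p are among the 21. Of the 7 such falls, only miR-370-3p is among the 4. The number of falls was 97 without isograft 12, 65 without allograft 56, 13 without isograft 56, 12 without isograft 34, 7 without allograft 34 and 5 without allograft 12, while rises numbered 21 to 32. With the libraries at a common median ratio, falls numbered 54 to 75 and rises 69 to 84 without each library.

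**Figure D5:**
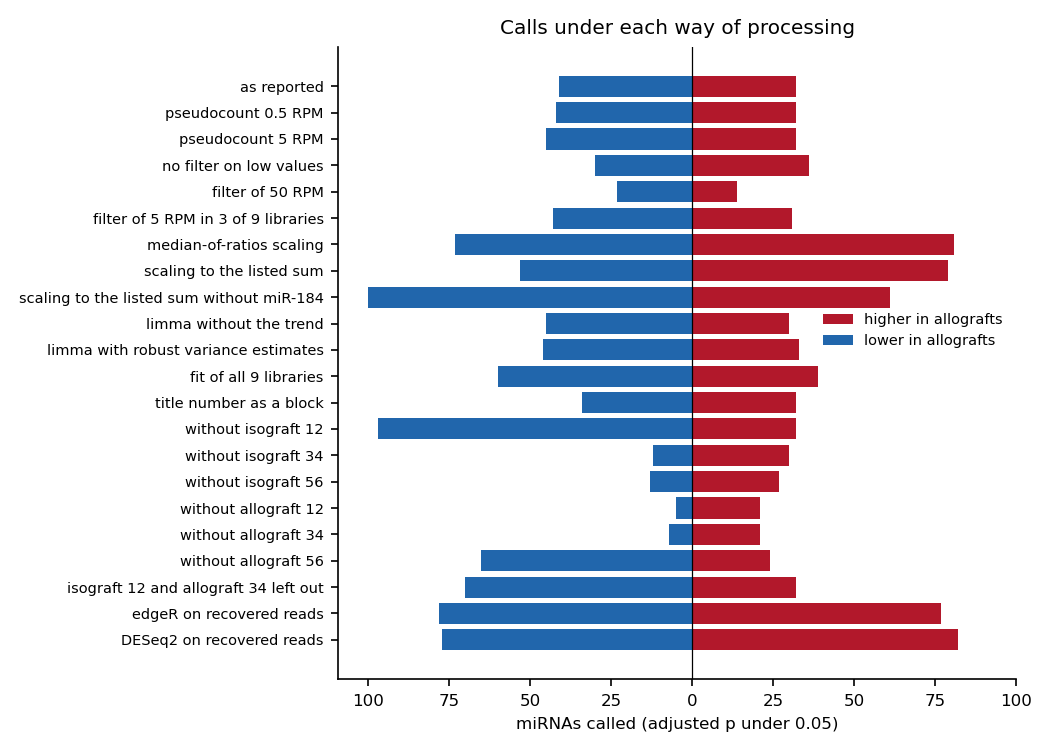
Number of miRNAs called at an adjusted p under 0.05, higher in allografts to the right and lower to the left, under each way of processing, one row per setting and with the reported fit at the top. Falls range from 5 without allograft 12 to 100 with scaling to the listed sum without miR-184, while no setting gives fewer than 14 rises.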

How the data were processed

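The 9 small RNA libraries of rat cornea were made from 1 ug of total RNA extracted with Trizol, with the Illumina TruSeq kit, per the labels' protocols. The authors deposited RPM values for 765 mature miRNAs in 9 columns, each named as its library is titled, and 0 columns went unmatched. bcl2fastq, BWA and the build rn6 were used, per the submitters' processing notes; not given in the sources used here are tool versions, the origin of the miRNA names and how reads with several matches were assigned. RPM values moved in whole-read steps (100% whole within 0.1 read), which gave the denominators. Precision of low values is set by counting, 3 reads being 0.247 to 0.273 RPM and, with no molecular identifiers, reads can be copies of 1 molecule.

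The 6 graft libraries were fitted with limma 3.58.1 (R 4.3.3) on log2(RPM + 1) with a mean-variance trend, no covariate and 4 residual degrees of freedom, with two-sided p-values adjusted by Benjamini-Hochberg over the 271 miRNAs, 60 arm ratios or 191 seed sums. Single shares and ratios were compared by exact two-sided permutation. The steps were tested on simulated data. Named miRNAs are the 12 largest rises and falls among called miRNAs without overlap whose higher group averaged 50 RPM or more, the 10 most abundant, the 8 of at least 500 RPM with the narrowest reach from 0, the arm ratios and seed sums with the largest change, the 5 with the largest spread, those at the edge of the filter and members of 19 lists. The members and lists were chosen with earlier results of these data known. edgeR 4.0.16 and DESeq2 1.42.0 were run on the recovered reads as alternatives. Mature sequences came from RefSeq (GRCr8) for 689 of 765 miRNAs.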

Additional observations from a re-analysis of the deposited data

Results flagged for a closer look

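miR-363-5p, the other arm of the hairpin with the largest rise, was too low to test and stood out because it was read only in allografts. It had 8, 5 and 10 reads in allografts 12, 34 and 56, or 23 in all, and 0 reads in each isograft and each normal cornea. A count of 0 in a library allows up to 3 reads. No measure reported here was tested for a sample far from its group, since that needs groups of at least 4 samples and these have 3.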

How the results depend on the processing

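As reported, 73 miRNAs were called, 32 higher and 41 lower. Without each library in turn 26 to 129 were called, 21 to 32 higher and 5 to 97 lower. Other scalings called 154 (81 higher, 73 lower) at a common median ratio, 132 (79 higher) at the listed sum and 161 (61 higher, 100 lower) without miR-184. edgeR called 155 (77 and 78) and DESeq2 159 (82 and 77), both with scalings of their own. A filter of 50 RPM called 37 (14 and 23), with 143 miRNAs tested. Leaving out isograft 12 and allograft 34 together gave 70 lower. Added after seeing the data, the common median ratio gave 139 (75 and 64) with those 2 left out and, without each library in turn, 123, 132, 137, 138, 139 and 159 calls, 69 to 84 higher and 54, 63, 64 and 75 lower. Arm ratios, 3 as reported, numbered 5 in a fit of all 9 libraries, 0 with both arms at 50 RPM, 1 without isograft 12 and allograft 34, and 0 to 4 without each library. Seed sums, 53 as reported, numbered 107 at the common median ratio, 81 without those 2 libraries and 19 to 94 without each. The fall of miR-184, -9.53 percentage points of all reads, was -18.5 of the listed reads. Causes of these shifts were not tested.

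The title numbers, whose meaning is not stated, were not used to pair the samples. Deviations of same-numbered libraries from their group means correlated at -0.06, -0.43 and 0.57, and isograft 12 correlated best with allograft 34 (0.62). Differences in level between whole libraries enter these values, so they cannot show whether same-numbered libraries belong together. With the number as a replicate block 66 miRNAs were called (32 higher, 34 lower), 14 arm ratios and 58 seed sums. None of the called miRNAs, arm ratios and seed sums reversed its direction in any setting tried; for the called miRNAs 1781 recomputed values kept their side of the threshold and 224 fell short of it. With 3 libraries a group the median SE was 0.43, so changes well under 2-fold could not be detected.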
